A study of Mus musculus with 9 samples.

Results

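The genes described here are 7 transcription factors that specify inhibitory interneurons of the spinal cord, namely Pax2, Pax8, Lhx1, Lhx5, Ptf1a, Gbx1 and Gbx2. They were chosen by name, as array features that the platform annotation assigns to one of these symbols alone. The rule did not use their measured values, though earlier results of these data were known when they were chosen. All 7 were measured, on 9 of the 41345 features of the array, and they make up 7 of the 22180 genes tested. Ptf1a and Gbx2 have a second feature, and the brighter feature of each gene stands for it.

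RNA was prepared from spinal cords dissected at e11.5 and hybridised to Affymetrix MoGene 2.0 ST arrays, which read a transcript with probes spread along its exons. The OC mutant group held 4 arrays of Hnf6-/-;Oc2-/- mouse embryos, which lack the Onecut (OC) factors Hnf6 (the gene Onecut1) and Oc2 (Onecut2) in every cell. The study's methods state that expression of the remaining family member, Oc3 (Onecut3), is lost in the cord of such embryos too, so the model does not separate the Onecut factors from each other. The control group held 5 arrays of embryos labelled only as controls, of the same stage, and each array was taken as 1 embryo. A further mutant embryo mentioned in the description of the series was not analysed here. Whole cords were used, so each value mixes all rostrocaudal levels and all cell types, and in such bulk RNA fewer cells of a type and less RNA per cell cannot be told apart.

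Inhibitory neurons of the spinal cord arise in several dorsal and ventral progenitor domains, and most of them switch on Pax2 when they leave the cell cycle. In the dorsal cord, the basic helix-loop-helix factor Ptf1a acts in late progenitors and newborn neurons, where it favours an inhibitory over an excitatory fate. The LIM homeodomain factors Lhx1 and Lhx5 then help to keep Pax2 on, and Pax2 with its close relative Pax8 helps to install the GABAergic phenotype. Gbx1 is a homeobox factor of dorsal horn neurons, and its paralog Gbx2, best known from the midbrain-hindbrain boundary, is also expressed in the developing cord.

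The sequence just upstream of the transcription start is shown for Pax2, for the 2 factors whose levels followed it most closely across embryos, Lhx1 and Pax8, and for Ptf1a, whose level did not follow theirs. Each line holds the 250 bases before the annotated start, read 5′ to 3′ on the strand of the gene, from RefSeq on GRCm38.p6. Capitals mark TGGGAA, the core letters bound by RBPJ, the partner of Ptf1a in the PTF1 complex, and would also mark the E-box CANNTG, the letters read by basic helix-loop-helix factors, of which these stretches hold none.
Pax2, chr19:44746351-44746600, plus strand, the most upstream of its 3 starts in the table: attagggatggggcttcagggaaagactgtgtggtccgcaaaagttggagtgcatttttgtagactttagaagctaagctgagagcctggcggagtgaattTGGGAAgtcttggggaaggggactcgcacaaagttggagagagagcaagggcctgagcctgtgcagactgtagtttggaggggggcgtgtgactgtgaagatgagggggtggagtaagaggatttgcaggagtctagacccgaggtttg
Pax8, chr2:24475600-24475849, minus strand: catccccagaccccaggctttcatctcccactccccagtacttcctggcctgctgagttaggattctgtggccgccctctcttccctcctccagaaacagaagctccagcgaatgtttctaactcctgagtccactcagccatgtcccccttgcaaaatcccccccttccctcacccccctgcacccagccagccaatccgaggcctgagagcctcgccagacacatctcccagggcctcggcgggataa
Lhx1, chr11:84525535-84525784, minus strand: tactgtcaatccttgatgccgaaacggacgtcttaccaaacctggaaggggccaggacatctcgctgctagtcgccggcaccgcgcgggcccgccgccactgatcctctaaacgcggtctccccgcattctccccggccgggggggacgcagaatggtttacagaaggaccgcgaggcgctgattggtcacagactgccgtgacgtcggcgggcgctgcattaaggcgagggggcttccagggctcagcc
Ptf1a, chr2:19445413-19445662, plus strand: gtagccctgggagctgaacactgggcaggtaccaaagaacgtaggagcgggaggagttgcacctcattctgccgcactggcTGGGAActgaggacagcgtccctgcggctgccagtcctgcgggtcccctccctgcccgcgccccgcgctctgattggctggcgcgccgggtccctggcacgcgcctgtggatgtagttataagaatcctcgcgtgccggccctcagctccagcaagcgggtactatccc
Windows from 250 bases before to 50 bases after a start could be read for 5 of the 7 genes, 7 windows in all, and were searched on both strands. The Onecut core letters ATTGAT were in 0 of these 7 windows, where 7.54% of 32851 mouse promoter windows hold them. TGGGAA was in 2 windows, those of Ptf1a and of the most upstream Pax2 start, against 25.6% of all windows, and CANNTG was in 4 windows, against 72.3% of all. TAATTA, the palindrome read by many homeodomain factors, was in 0 windows, against 5.29% of all. No match of one motif overlapped another in the printed stretches. These matches describe letters in short windows and were not tested as binding sites.

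The arrays were first set against their labels. Onecut2 had a log2 signal of 6.90 ± 0.34 in OC mutant (SD, n = 4) and 7.75 ± 0.20 in control spinal cords (SD, n = 5). Onecut3 had 6.29 ± 0.12 in OC mutant (SD, n = 4) and 7.10 ± 0.21 in control spinal cords (SD, n = 5). For both genes all OC mutant values were under all control values, and the exact permutation p, two-sided, was 0.00794 for either, the lower limit of the test with 4 arrays against 5, although neither passed adjustment over all genes in limma (adjusted p = 0.127 and 0.0624). Onecut1 signal differed by −0.11 (SE 0.13) only, and whether its probes lie in the deleted sequence was not examined. All 10 listed spinal cord markers were measured, with 2 higher and 8 lower in sign in OC mutant and a median log2 fold change of −0.07. None passed adjustment in limma, and 1, Mnx1 (−0.44, SE 0.18), was lower by the unadjusted threshold used below. The Hox gene Hoxc6, one of the 2 higher in sign, lay between 9.18 and 10.12 in OC mutant and between 8.40 and 9.59 in control arrays. The arrays OC mutant 3 and control 1 stood apart from their groups in the genes described below, so the log2 fold change of each factor is given with and without them.

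Loss of the OC factors was accompanied by no detectable change in any of the 7 factors. In limma, 0 of the 7 passed an adjusted p of 0.05, where 0.0225% of all genes tested did (5 genes), and 0 of the 7 passed an unadjusted p of 0.05, where 9.74% of all genes did (4.81% higher and 4.93% lower in OC mutant cords). The values of OC mutant and control arrays overlapped for all 7, and the groups did not overlap for 3.94% of all genes (2.15% with every OC mutant array above, 1.79% with every one below). The log2 fold change, OC mutant minus control, was positive for 2 factors and negative for 5, with a median of −0.06, against 0.0045 over all genes tested. The intervals were wide for Pax2 and Pax8, which differed strongly between embryos of the same group. These intervals run from 0.521-fold to 1.74-fold for Pax2 and from 0.497-fold to 1.84-fold for Pax8.

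Pax2 (feature 17359726), the paired-box factor that marks most spinal inhibitory neurons, had log2 signals of 8.44, 8.23, 6.84 and 8.11 in OC mutants 1 to 4, against 6.73, 8.16, 8.78, 7.96 and 8.26 in controls 1 to 5. One array of each group, OC mutant 3 and control 1, was far below the others, and the remaining OC mutants (8.11 to 8.44) lay inside the range of the remaining controls (7.96 to 8.78). The means were 7.91 ± 0.72 in OC mutant (SD, n = 4) and 7.98 ± 0.76 in control cords (SD, n = 5). The log2 fold change was −0.07 (SE 0.40, 95% interval −0.94 to 0.80), or 0.952-fold (0.521 to 1.74), with an adjusted p of 0.978 in limma and p = 0.857 in the exact two-sided permutation test over 126 assignments of the arrays. Without OC mutant 3 and control 1 it was −0.03 (95% interval −0.43 to 0.37), while leaving out control 1 alone gave −0.38 and leaving out OC mutant 3 alone gave 0.28.

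Pax8 (feature 17382224), which belongs to the same paired-box subfamily as Pax2, had 8.57, 8.99, 7.12 and 8.01 in OC mutants 1 to 4, against 6.92, 8.22, 9.01, 8.22 and 8.80 in controls 1 to 5. The same arrays of each group were lowest as for Pax2, and the groups overlapped over nearly their whole range. The means were 8.17 ± 0.81 in OC mutant (SD, n = 4) and 8.24 ± 0.81 in control cords (SD, n = 5). The log2 fold change was −0.06 (SE 0.43, 95% interval −1.01 to 0.88), or 0.957-fold (0.497 to 1.84; limma, adjusted p = 0.982; exact two-sided permutation test, p = 0.841). Without the 2 low arrays it was −0.04 (95% interval −0.61 to 0.52), and without control 1 or OC mutant 3 alone it was −0.39 or 0.29. With the mean of 16 pan-neuronal genes as a covariate, a fit chosen after the values were seen, it was 0.38 (95% interval 0.13 to 0.64), which did not pass adjustment over all genes (limma, adjusted p = 0.186).

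Lhx1 (feature 17267039), a LIM homeodomain factor of dorsal and ventral inhibitory classes, had 8.97, 8.64, 7.88 and 8.58 in OC mutants 1 to 4, against 7.71, 8.82, 9.01, 8.75 and 8.71 in controls 1 to 5. OC mutant 3 and control 1 were again the lowest of their groups; the other 4 controls lay close together. The means were 8.52 ± 0.46 in OC mutant (SD, n = 4) and 8.60 ± 0.51 in control cords (SD, n = 5), and their difference was −0.08 (SE 0.26, 95% interval −0.66 to 0.50; limma, adjusted p = 0.952; exact two-sided permutation test, p = 0.722). It was −0.09 (95% interval −0.37 to 0.19) without OC mutant 3 and control 1. A feature shared by Lhx1 and the overlapping transcript Lhx1os, left out because it carries 2 symbols, differed by −0.11 and followed the Lhx1 feature across arrays (r = 0.977 of the deviations from the group means, n = 9).

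Lhx5 (feature 17441652), the paralog of Lhx1, had 8.45, 8.55, 7.67 and 7.95 in OC mutants 1 to 4, against 7.22, 8.10, 8.48, 8.60 and 8.39 in controls 1 to 5. It differed least of the 7 between the groups. The means were 8.16 ± 0.42 in OC mutant (SD, n = 4) and 8.16 ± 0.56 in control cords (SD, n = 5), and their difference was −0.0023 (SE 0.27, 95% interval −0.60 to 0.59; limma, adjusted p = 0.999; exact two-sided permutation test, p = 1.0). It was −0.075 (95% interval −0.45 to 0.29) without the 2 low arrays. Here OC mutant 4 joined OC mutant 3 in the lower part of the range.

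Ptf1a (feature 17367376), the fate determinant of dorsal inhibitory neurons, had 5.25, 4.79, 5.35 and 5.38 in OC mutants 1 to 4, against 5.23, 5.17, 4.72, 5.56 and 4.72 in controls 1 to 5. The low arrays were others than for the Pax and Lhx genes, namely OC mutant 2 and controls 3 and 5, and OC mutant 3 and control 1 were in the upper part of their groups. The means were 5.19 ± 0.28 in OC mutant (SD, n = 4) and 5.08 ± 0.36 in control cords (SD, n = 5), and their difference was 0.11 (SE 0.19, 95% interval −0.29 to 0.52; limma, adjusted p = 0.888; exact two-sided permutation test, p = 0.627). Without OC mutant 3 and control 1 it was 0.10 (95% interval −0.39 to 0.59). Its mean signal lay below the median signal of each array (5.23 to 5.31), a range in which array background can compress differences. A second, dimmer feature (17382054) gave −0.07 (SE 0.14) and did not follow the first across arrays (r = 0.0067, n = 9), so the account of Ptf1a rests on 1 feature.

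Gbx1 (feature 17446213), a homeobox factor of dorsal horn neurons, had 4.01, 4.65, 4.04 and 3.60 in OC mutants 1 to 4, against 3.76, 3.48, 4.46, 4.17 and 4.2 in controls 1 to 5. These values are dim, with a mean below every array median, and the groups overlapped almost fully. The means were 4.07 ± 0.43 in OC mutant (SD, n = 4) and 4.01 ± 0.39 in control cords (SD, n = 5), and their difference was 0.06 (SE 0.23, 95% interval −0.43 to 0.55; limma, adjusted p = 0.959; exact two-sided permutation test, p = 0.857). It was 0.0081 (95% interval −0.58 to 0.60) without OC mutant 3 and control 1.

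Gbx2 (feature 17225373), its paralog, had 7.27, 7.67, 7.12 and 6.84 in OC mutants 1 to 4, against 6.67, 7.49, 7.65, 7.31 and 7.72 in controls 1 to 5. Control 1 was the lowest array, while in the OC mutant group the lowest was OC mutant 4 and not OC mutant 3. The means were 7.22 ± 0.34 in OC mutant (SD, n = 4) and 7.37 ± 0.42 in control cords (SD, n = 5), and their difference was −0.14 (SE 0.22, 95% interval −0.62 to 0.33; limma, adjusted p = 0.877; exact two-sided permutation test, p = 0.595). Without OC mutant 3 and control 1 the Gbx2 difference was −0.28 (95% interval −0.69 to 0.12; limma, adjusted p = 0.680). The second Gbx2 feature (17215601) gave −0.04 (SE 0.15) and did not follow the first across arrays (r = 0.0050, n = 9).

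**Figure D1:**
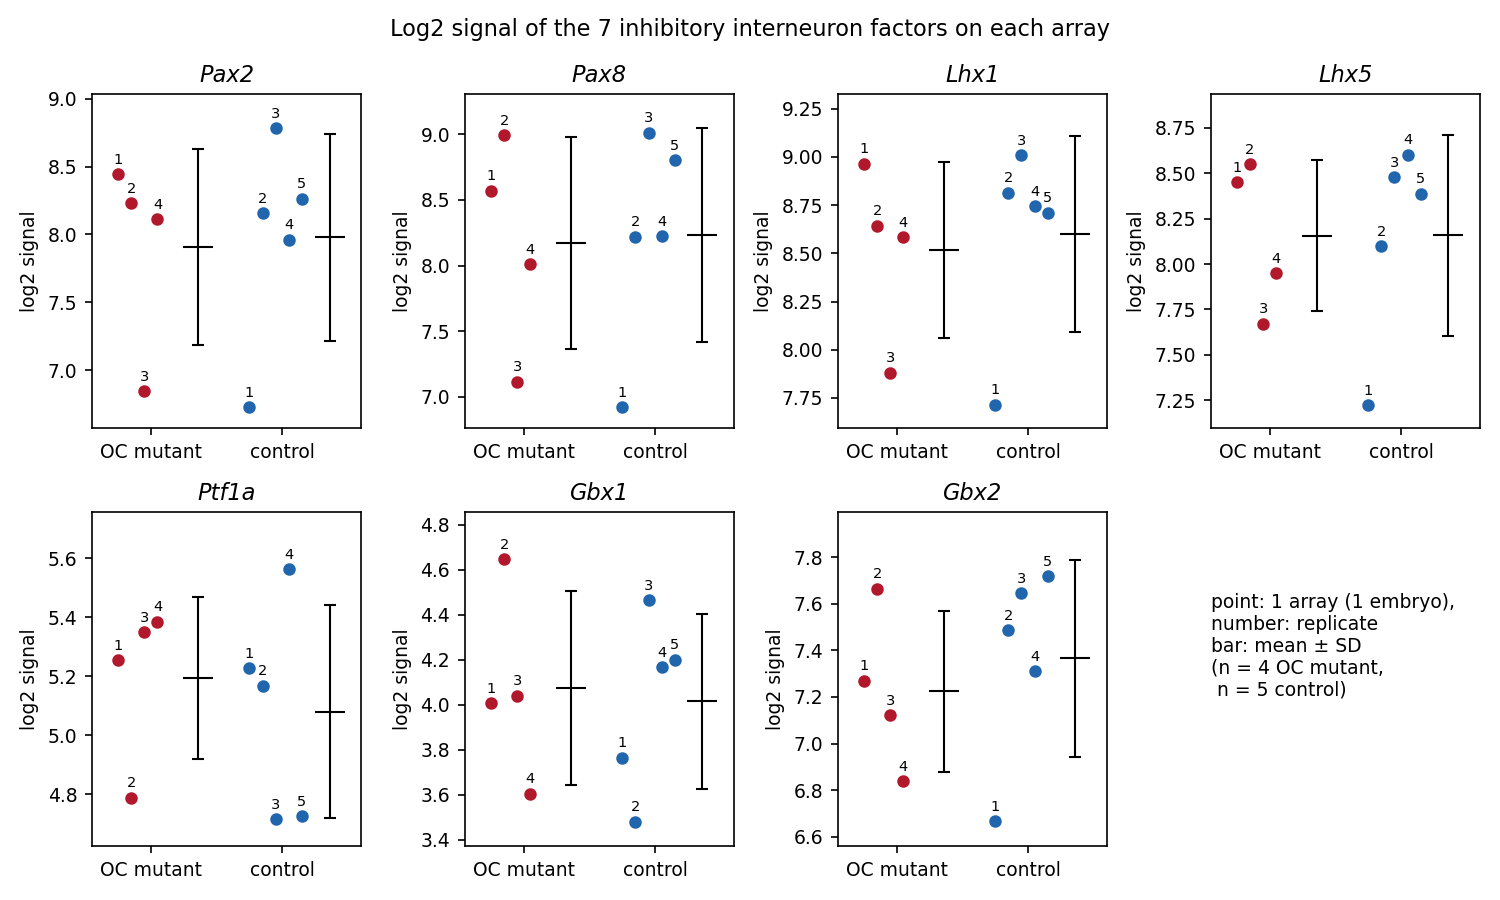
Log2 signal (vertical axis, a separate range for each gene) of the 7 factors on each array of OC mutant (left, n = 4) and control (right, n = 5) spinal cords, with the replicate number beside each point and the mean ± SD as a bar. OC mutant 3 and control 1 are the lowest arrays of their groups for Pax2, Pax8, Lhx1 and Lhx5, at 6.84 and 6.73 for Pax2, and are not the lowest for Ptf1a.

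**Figure D2:**
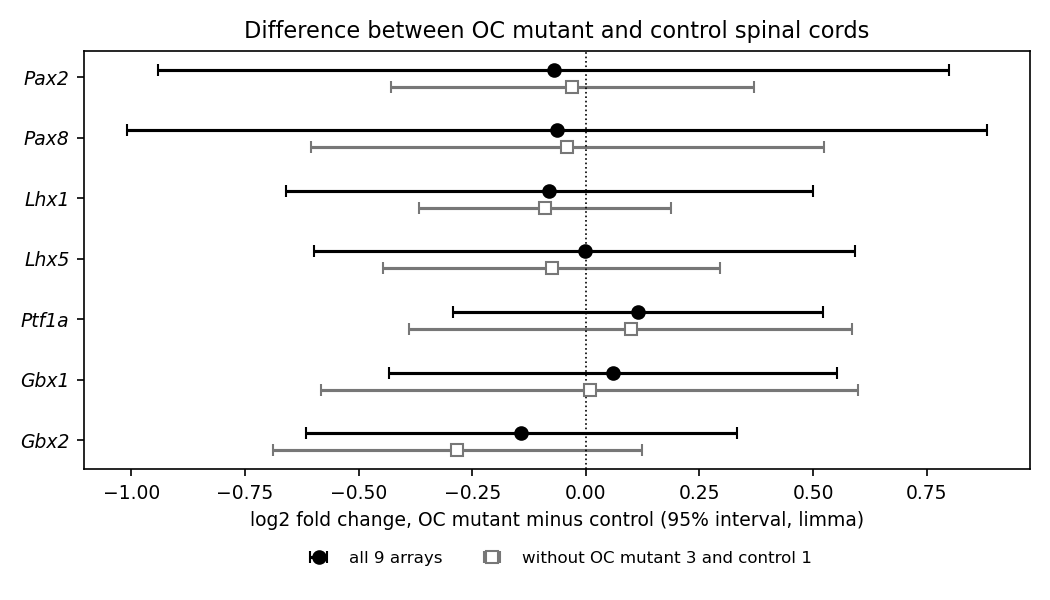
Log2 fold change, OC mutant minus control, of the 7 factors with its 95% interval from limma (horizontal axis), on all 9 arrays (filled circles) and without OC mutant 3 and control 1 (open squares). All intervals include 0, and that of Pax2 runs from −0.94 to 0.80 with all arrays and from −0.43 to 0.37 without those 2.

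The factors come as 3 pairs of paralogs, and for Pax2 with Pax8 and Lhx1 with Lhx5 no unequal change between the genotypes was detected. Within an array, the gap Pax2 minus Pax8 averaged −0.26 ± 0.37 in OC mutant (SD, n = 4) and −0.26 ± 0.17 in control cords (SD, n = 5), a difference of −0.0075 (exact two-sided permutation test, p = 0.984, adjusted p = 0.984 over the 3 pairs). The gap Lhx1 minus Lhx5 differed by −0.08 (exact permutation p = 0.619, adjusted p = 0.929). Without OC mutant 3 and control 1 the differences of these gaps were 0.011 and −0.015. The gap Gbx1 minus Gbx2 differed by 0.20 (exact permutation p = 0.460, adjusted p = 0.929) and by 0.29 without those 2 arrays, but Gbx1 signal is dim, so this pair shows nothing about an unequal change.

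Embryos of one group differed widely in these factors. The SD within groups was 0.75 for Pax2 and 0.81 for Pax8 on the log2 scale, higher than for 99.7% and 99.8% of the 22180 genes, whose median SD was 0.176 and whose 90th percentile was 0.321. Lhx1 (SD 0.49) and Lhx5 (SD 0.50) varied more than 97.9% and 98.2% of genes. Gbx1, Gbx2 and Ptf1a varied more than 95.9%, 95.2% and 90.9% of genes. Pax2 signal in OC mutant 3 was 0.374-fold the mean of the other OC mutants, and in control 1 it was 0.338-fold the mean of the other controls. For Pax8 these ratios were 0.377 and 0.320, for Lhx1 0.555 and 0.465, and for Lhx5 0.640 and 0.444. Each of these gaps within a genotype was larger than the difference between the group means of the same gene.

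**Figure D3:**
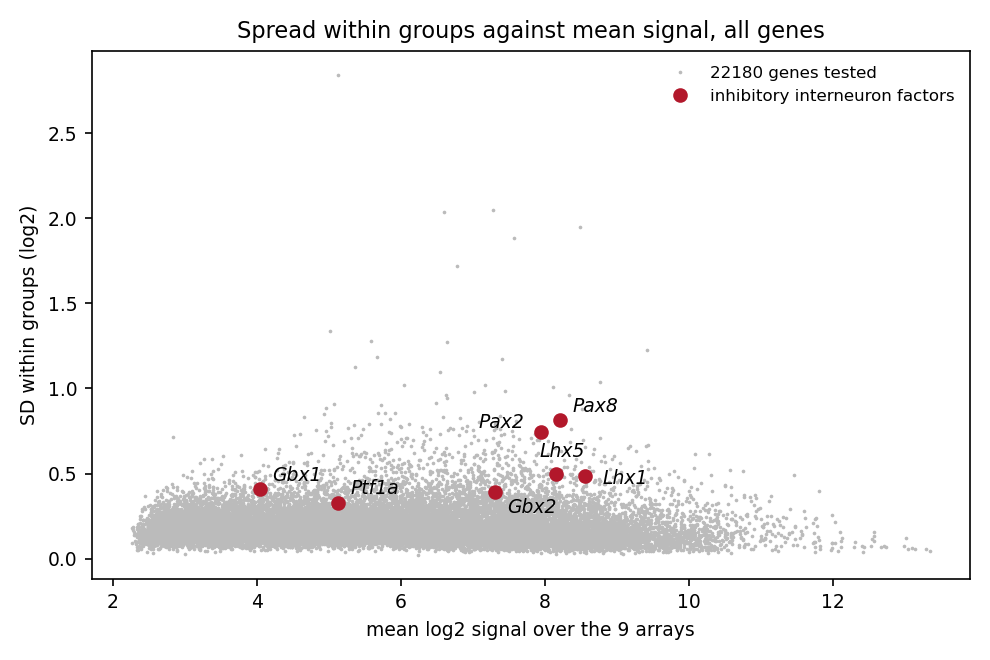
SD within groups (vertical axis, log2) against the mean log2 signal over the 9 arrays (horizontal axis) for 22180 genes (grey) and the 7 factors (red). Pax8 (0.81) and Pax2 (0.75) stand near the top of the genes of like signal, whereas the median over all genes is 0.176.

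Pax2 varied together with Lhx1 and with Pax8, and Pax8 with Lhx5. Of the 21 pairs among the 7 factors, 3 had a correlation of their deviations from the group means that passed Benjamini-Hochberg adjustment over the 21 pairs by Pearson's r, with permutation within groups over 2880 orders. Pax2 and Lhx1 had r = 0.975 over 9 arrays (exact permutation p = 0.00243, adjusted p = 0.0292) and Spearman's rho = 0.733 (exact permutation p = 0.0420, adjusted p = 0.126). Pax2 and Pax8 had r = 0.942 (exact permutation p = 0.00278, adjusted p = 0.0292) and rho = 0.850 (exact permutation p = 0.00833, adjusted p = 0.0875). Pax8 and Lhx5 had r = 0.910 (exact permutation p = 0.00590, adjusted p = 0.0413) and rho = 0.817 (exact permutation p = 0.0208, adjusted p = 0.109). By rank, no pair passed adjustment. Leaving out control 1 and OC mutant 3, the arrays farthest from the median, r was 0.773 for Pax2 with Lhx1, 0.685 for Pax2 with Pax8 and 0.626 for Pax8 with Lhx5.

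The other pairs of these 4 factors did not pass, and they were much weaker without the 2 low arrays. Pax8 with Lhx1 had r = 0.897 on 9 arrays (exact permutation p = 0.0125, adjusted p = 0.0531) and 0.355 without them. Pax2 with Lhx5 had r = 0.856 on 9 arrays (exact permutation p = 0.0170, adjusted p = 0.0531) and 0.202 without them, and Lhx1 with Lhx5 had r = 0.888 (exact permutation p = 0.0177, adjusted p = 0.0531) and 0.311 without them. Pax8 with Gbx2 behaved otherwise, with r = 0.849 on 9 arrays (exact permutation p = 0.0132, adjusted p = 0.0531), rho = 0.917 (exact permutation p = 0.00382, adjusted p = 0.0802) and r = 0.862 without control 1 and OC mutant 3. Ptf1a had a negative r with every other factor, between −0.68 (Gbx2) and −0.30 (Lhx1), none of which passed adjustment (lowest adjusted p = 0.148, exact permutation within groups).

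**Figure D4:**
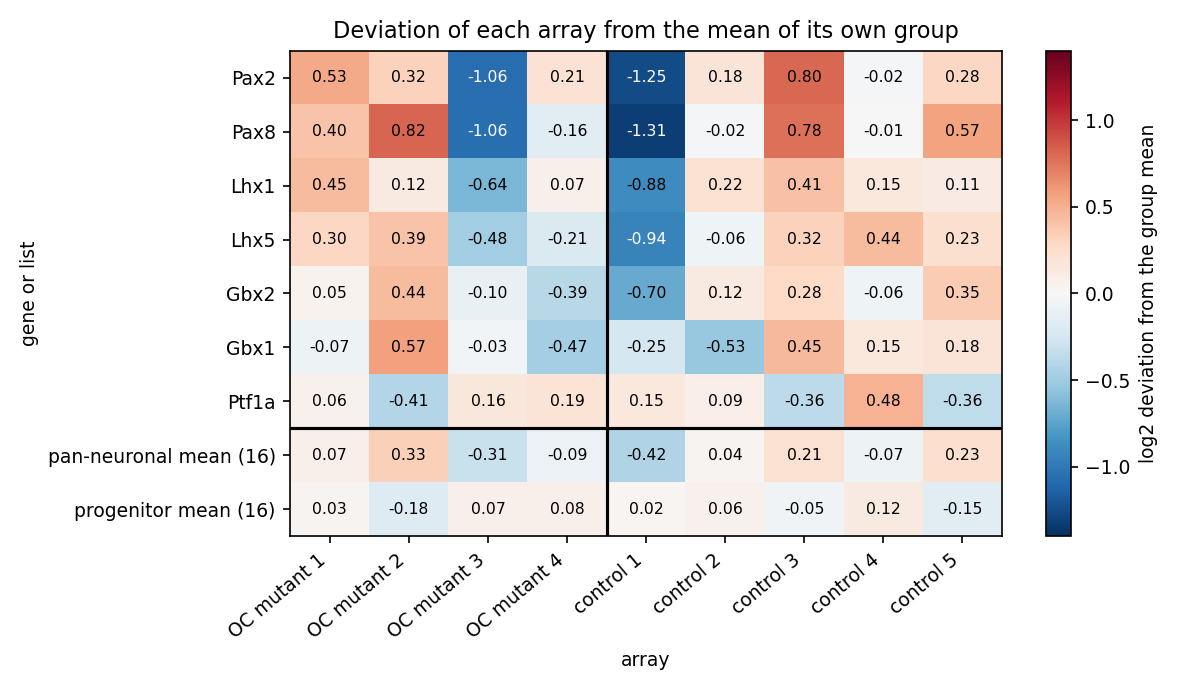
Deviation of each array (columns, OC mutant left of control) from the mean of its own group, on the log2 scale, for the 7 factors and for the mean of 16 pan-neuronal and 16 progenitor genes (rows). Control 1 and OC mutant 3 are blue, that is low, for Pax2, Pax8, Lhx1, Lhx5 and the pan-neuronal mean, whereas Ptf1a is low on OC mutant 2 and controls 3 and 5 together with the progenitor mean.

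Pax8 and the brighter feature of Gbx2 followed the mean of a list of pan-neuronal genes, by value and by rank. Across the 9 arrays, the mean of 16 pan-neuronal genes (such as Tubb3, Elavl3 and Dcx) was 9.92, 10.18, 9.54 and 9.76 in OC mutants 1 to 4, against 9.58, 10.04, 10.21, 9.93 and 10.23 in controls 1 to 5. OC mutant 3 and control 1 were lowest in this mean as well, and 13 of the 16 genes were lowest on both, where 10.9% of all genes were. Between the genotypes, 0 of the 16 passed an adjusted p of 0.05 and 4 were lower at an unadjusted p of 0.05, namely Uchl1 (−0.48, SE 0.15), Nefl (−0.37, SE 0.12), Stmn3 (−0.45, SE 0.15) and Tubb3 (−0.26, SE 0.12), so this mean is not free of a possible group difference where it serves as a covariate. Of 14 relations tested between a factor and the pan-neuronal or progenitor mean, 6 passed adjustment by Pearson's r, which were those of Pax8, Gbx2, Pax2, Lhx5 and Lhx1 with the pan-neuronal mean and that of Ptf1a with the progenitor mean. Pax8 was closest, with r = 0.980 (exact permutation p = 0.00139, adjusted p = 0.0194), rho = 0.967 (exact permutation p = 0.00243, adjusted p = 0.0146) and r = 0.945 without control 1 and OC mutant 3. Gbx2 had r = 0.903 (exact permutation p = 0.00521, adjusted p = 0.0194), rho = 0.967 (exact permutation p = 0.00104, adjusted p = 0.0146) and r = 0.937 without the 2 arrays farthest from its median, control 1 and OC mutant 4. The second Gbx2 feature did not follow the first (r = 0.0050), so this relation rests on 1 feature.

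Pax2 had r = 0.880 with the pan-neuronal mean (exact permutation p = 0.00556, adjusted p = 0.0194), rho = 0.817 (exact permutation p = 0.0149, adjusted p = 0.0523) and r = 0.513 without control 1 and OC mutant 3. Lhx5 had r = 0.858 (exact permutation p = 0.0115, adjusted p = 0.0321), rho = 0.700 (exact permutation p = 0.0622, adjusted p = 0.145) and r = 0.479 without them. Lhx1 had r = 0.822 (exact permutation p = 0.0201, adjusted p = 0.0470), rho = 0.583 (exact permutation p = 0.141, adjusted p = 0.180) and r = 0.136 without them, so this relation rests on those 2 arrays. Gbx1 had r = 0.590 (exact permutation p = 0.131, adjusted p = 0.166).

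The brighter feature of Ptf1a followed the mean of a list of progenitor genes instead. Its deviations had r = 0.933 with the mean of 16 progenitor and cell cycle genes (such as Sox2, Pcna and Mki67; exact permutation p = 0.00278, adjusted p = 0.0194), rho = 0.933 (exact permutation p = 0.00313, adjusted p = 0.0146) and r = 0.942 without the arrays farthest from its median, control 3 and OC mutant 2. With the pan-neuronal mean Ptf1a had r = −0.73 (exact permutation p = 0.0431, adjusted p = 0.0861). The second Ptf1a feature did not follow the first (r = 0.0067), so the account of Ptf1a here rests on 1 dim feature. The other 6 factors had r between −0.67 (Gbx1) and −0.19 (Lhx1) with the progenitor mean, and none passed adjustment. Of these 16 genes, Ccna2, a cyclin, was higher (0.25, SE 0.11) and Nes, the progenitor filament nestin, lower (−0.26, SE 0.10) at an unadjusted p of 0.05, and 0 passed adjustment. The progenitor mean spanned only 9.20 to 9.45 in OC mutant and 9.19 to 9.46 in control arrays.

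**Figure D5:**
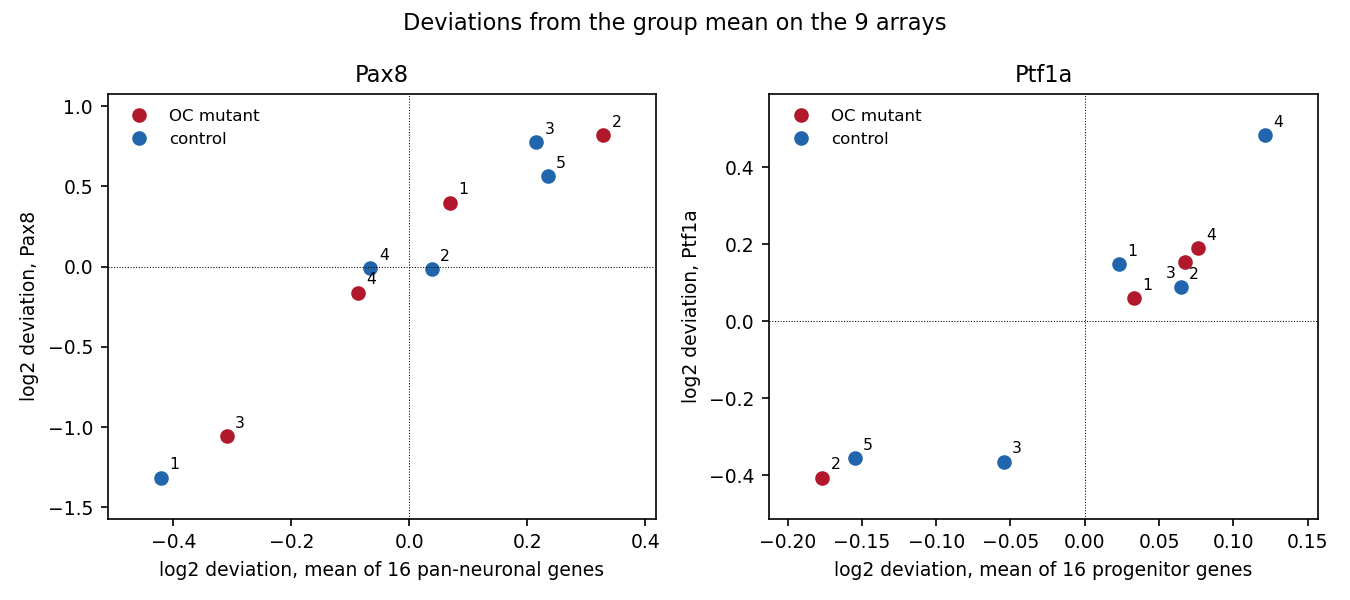
Deviations from the group mean on the 9 arrays (log2), for Pax8 against the mean of 16 pan-neuronal genes (left) and for Ptf1a against the mean of 16 progenitor genes (right), with OC mutant arrays in red, control arrays in blue and the replicate number beside each point. Pax8 climbs with the pan-neuronal mean through both groups (r = 0.980), and the brighter feature of Ptf1a with the progenitor mean (r = 0.933).

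Tissue around the cord also differed between the arrays. The mean of 5 mesenchyme genes was 6.46, 6.61, 7.06 and 7.63 in OC mutants 1 to 4, against 8.16, 7.09, 7.0, 6.64 and 6.90 in controls 1 to 5. Control 1 was thus highest in mesenchyme and lowest in the Pax and Lhx factors. Among the OC mutants, mesenchyme was highest on OC mutant 4 and Pax2 lowest on OC mutant 3. Within each group the mean of 5 muscle genes was highest on the array low in Pax2, at 5.54 in OC mutant 3 and 5.76 in control 1, as was that of 2 embryonic globin genes, at 10.16 in OC mutant 3 and 10.14 in control 1. Hoxc6 was lowest in control 1, at 8.40 against 9.37 to 9.59 in the other controls. Oc90, a gene of the inner ear, was at 6.92 and 8.19 in OC mutants 3 and 4 and between 4.58 and 4.92 on the other 7 arrays. Of the sources of Pax2 and Pax8 outside the cord, markers of the nephric lineage averaged 5.85 to 6.12 in OC mutant and 5.83 to 6.13 in control arrays (10 of 12 listed genes measured), with Six2 highest on OC mutant 4 at 7.10. Pancreatic markers, which would accompany pancreatic Ptf1a, averaged 5.07 to 5.24 in OC mutant and 5.11 to 5.23 in control arrays, and Pdx1, their defining gene, was at 4.56 to 4.83 and 4.66 to 5.09, below every array median. The mean of 3 Y-linked genes was 8.19 to 8.31 on all 4 OC mutant arrays and low (3.52 and 3.77) on controls 2 and 3 only. The labels do not give sex. By this signal it was not balanced between the groups, so sex and genotype cannot be fully told apart. With that Y-linked mean as a covariate the log2 fold change of Pax2 was 0.25 and that of Pax8 0.18, and none of the 7 factors passed. Other listed markers past an unadjusted p of 0.05 were the muscle genes Tnnt3 (−0.36, SE 0.11) and Myog (−0.54, SE 0.19), the motor neuron gene Mnx1 (−0.44, SE 0.18) and Oc90 (1.41, SE 0.59). Prph (−0.76, SE 0.15) and Sncg (−0.58, SE 0.08), listed here as sensory neuron markers, passed it too. Of all these, Sncg passed adjustment in limma (adjusted p = 0.0357). Which cells, in or beside the cord, gave the Prph and Sncg signals cannot be told from these arrays. The part of mesenchyme, muscle, blood, inner ear and axial level in the results was not tested.

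Of 19 measured further transcription factors of inhibitory classes (of 21 listed), 0 passed an adjusted p of 0.05 and 1, Foxd3, passed an unadjusted p of 0.05, with 10 higher and 9 lower in sign and a median log2 fold change of 0.01. Foxd3, a forkhead factor of V1 interneurons and neural crest, had 6.38, 6.39, 6.36 and 6.55 in OC mutants 1 to 4, against 6.64, 6.96, 6.77, 6.83 and 6.48 in controls 1 to 5, which gave a difference of −0.32 (SE 0.11; in limma, adjusted p = 0.390). The next smallest p-values were those of Foxn4, a factor of V2 progenitors (−0.22, SE 0.10), Lbx1, which marks the dorsal classes dI4 to dI6 (−0.30, SE 0.16), and Tal1, a V2b factor (0.16, SE 0.10), none of which passed. On the 2 low arrays, 8 of the 19 were the lowest of both groups (Prdm13, Lbx1, Dmrt3, Foxn4, Gata3, Sall3, Tfap2b and Nr4a2), where 10.9% of all genes were. Tfap2b (r = 0.936) and Sall3 (r = 0.920) followed Pax2 across the 9 arrays most closely among them, as a description of arrays that share the same 2 low members. Others of the 19 did not follow Pax2, such as En1 (r = −0.10), Foxp2 (r = −0.25) and Dbx1 (r = −0.36). Dbx1 was highest of the OC mutants on OC mutant 3 (7.88), and Foxp2 was highest of the controls on control 1 (8.64).

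Of 12 measured genes of the inhibitory phenotype (of 13 listed), 0 passed an adjusted or an unadjusted p of 0.05 between the genotypes, and 5 were lowest on both OC mutant 3 and control 1, where 10.9% of all genes were. Gad2, which makes GABA, had 9.09, 9.21, 7.76 and 8.42 in OC mutants 1 to 4, against 7.54, 8.30, 9.06, 8.59 and 9.10 in controls 1 to 5, which gave a difference of 0.10 (SE 0.35; in limma, adjusted p = 0.955). Slc6a5, the neuronal glycine transporter, had 8.55, 8.44, 7.04 and 7.77 in OC mutants 1 to 4, against 7.05, 7.60, 8.39, 8.05 and 8.30 in controls 1 to 5, which gave a difference of 0.07 (SE 0.33; in limma, adjusted p = 0.970). Both were lowest on OC mutant 3 and control 1, as were Gad1, Slc32a1 and Pnoc, and their deviations had r = 0.909 and 0.903 with those of Pax2. Others of the list did not follow Pax2, such as Sst (r = −0.26) and Kirrel2 (r = 0.0012). The pan-neuronal genes Ina (r = 0.944) and Syt1 (r = 0.915) followed Pax2 as closely, though not all of that list did (Nefm, r = −0.21). Such a tie to Pax2 was thus not particular to inhibitory genes.

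Slc32a1, the vesicular transporter that loads GABA and glycine, had the second smallest p of this list, after the neuropeptide gene Gal (−0.22, SE 0.13). It had 6.42, 6.31, 5.46 and 6.24 in OC mutants 1 to 4, against 6.0, 6.34, 6.82, 6.38 and 6.85 in controls 1 to 5, which gave a difference of −0.37 (SE 0.22; in limma, adjusted p = 0.616). Its dimmer second feature, singled out after its values were seen, had 4.93, 5.60, 4.72 and 5.13 in OC mutants 1 to 4, against 5.48, 5.78, 5.70, 5.75 and 5.64 in controls 1 to 5. That feature differed by −0.58 (SE 0.15; limma, adjusted p = 0.329 over all features; exact two-sided permutation test, p = 0.0159), and OC mutant 2 overlapped with the controls. Kirrel2 and Nphs1, known targets of Ptf1a, had r = 0.822 and r = 0.614 with it across arrays. Their log2 fold changes were near 0 (−0.03, SE 0.21, and 0.05, SE 0.25). They were named after their values were seen, and Prdm13, of the further inhibitory factors, had r = 0.16 with Ptf1a. These values rest on the 1 dim Ptf1a feature and do not show that its targets follow it. Npy, a neuropeptide of dorsal inhibitory neurons, spanned 6.19 to 8.69 in OC mutant and 6.29 to 8.86 in control arrays, with a log2 fold change of −0.41 (SE 0.62). Nos1, which makes nitric oxide, differed by 0.12 (SE 0.14). Npy and Nos1 ran against Ptf1a across arrays, with r = −0.85 and r = −0.95.

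Cofactors and binding partners of the 7 factors were taken next. Of 18 measured partners, 0 passed an adjusted p of 0.05 and 1 passed an unadjusted p of 0.05, with 5 higher and 13 lower in sign and a median log2 fold change of −0.08. That one was Ssbp4, of a family that binds the LIM-domain cofactor Ldb1, with 7.79, 7.97, 7.80 and 7.97 in OC mutants 1 to 4, against 8.69, 8.66, 8.32, 8.10 and 7.98 in controls 1 to 5, which gave a difference of −0.47 (SE 0.15; in limma, adjusted p = 0.366). Its groups did not overlap, as was so for 1 of the 18 partners and 3.94% of all genes, though OC mutant 2 and control 5 were nearly equal. Ldb1 itself, the cofactor through which Lhx1 and Lhx5 act, differed by −0.05 (SE 0.08). Rbpj, the partner of Ptf1a, differed by 0.09 (SE 0.09), and Paxip1, a Pax2-binding protein, by 0.16 (SE 0.09). The LIM-only protein gene Lmo4 (−0.20, SE 0.10) and Ldb2 (0.16, SE 0.09) did not pass either.

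For comparison, 16 genes of excitatory classes were taken (of 19 listed). Of these, 0 passed an adjusted p of 0.05 and 1 passed an unadjusted p of 0.05, with a median log2 fold change of −0.06. Evx2, a factor of the excitatory V0 class, had 5.15, 5.27, 5.05 and 5.28 in OC mutants 1 to 4, against 5.57, 5.51, 5.49, 5.64 and 5.61 in controls 1 to 5, which gave a difference of −0.37 (SE 0.08; in limma, adjusted p = 0.226; exact two-sided permutation test, p = 0.00794). That permutation p is the lower limit of the test, for the gene of smallest p in the list. Evx2 was the 1 gene of the 16 whose groups did not overlap, against 0 of the 7 inhibitory factors and 3.94% of all genes. Such small counts show no difference between the lists. The next smallest p-values were those of its neighbour and paralog Evx1 (−0.19, SE 0.10), of Tlx3 (−0.29, SE 0.16) and of Isl1 (−0.26, SE 0.15), none of which passed. Slc17a6, the glutamate transporter of excitatory neurons, was the 1 gene of the 16 that was lowest on both OC mutant 3 and control 1, where 10.9% of all genes were. Those arrays were singled out for their low Pax and Lhx signals, so a count of the 7 factors on them is no comparison. Atoh1 and Olig3, factors of dorsal progenitors, ran against Pax2 with r = −0.82 each, and Atoh1 was highest on those arrays, at 7.98 in OC mutant 3 and 7.63 in control 1.

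Of 17453 named genes, those whose deviations over the 9 arrays were most like those of Pax2 were Arhgap33 (r = 0.992) and Gpc2 (r = 0.984). Those most like Pax8 were Scg3 and Ina (r = 0.993 each), those most like Lhx1 were Slc8a2 (r = 0.998) and Pak6 (r = 0.997), and those most like Lhx5 were Tox3 (r = 0.990) and Kcnn1 (r = 0.989). Ptf1a was matched most closely by Cenpo (r = 0.977) and Gstp2 (r = 0.963), Gbx1 by Ints10 (r = 0.960) and Strip2 (r = 0.947), and Gbx2 by Klhl14 (r = 0.981) and Fam8a1 (r = 0.980). Among all other genes tested, Lhx1 ranked 10th for Pax2, and Pax2 ranked 7th for Lhx1. Pax8 ranked only 96th for Pax2, and Pax2 326th for Pax8. Lhx5 ranked 632nd for Pax8, and Pax8 108th for Lhx5. Many genes outside the 7 factors thus followed these members more closely than they followed each other. With 9 arrays and this many genes, values of this height are a ranking and not a test.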

How the data were processed

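The authors extracted RNA from e11.5 spinal cords, labelled it with the WT PLUS kit and scanned MoGene 2.0 ST arrays with Affymetrix devices and Expression Console. They deposited 1 table of log2 values for 41345 features on 9 arrays. How background and normalization were handled is not given in the sources used, and levels of different features were subtracted only within an array, for paralogs, to compare the gap between groups. Groups and replicate numbers came from the sample labels. The labels do not say that arrays of a group come from separate litters, so p-values measure the spread between these arrays.

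Features were named through the platform annotation, with symbols updated through RefSeq, and the feature with the highest mean stood for a gene, which left 22180 genes. Dim features were kept. The group difference, OC mutant minus control, was fitted in R 4.3.3 with limma 3.58.1 (lmFit, eBayes), with Benjamini-Hochberg adjustment over all genes and a threshold of 0.05. Single values were also tested by an exact two-sided permutation test over 126 assignments. Correlations used deviations from the group means and exact permutation within groups (smallest possible p, 6.94e-04). The steps were tested on simulated data. The 7 genes, the gene lists and the tests were chosen with earlier results of these data known. Named genes were the 7 factors, listed genes past an unadjusted p of 0.05, up to 4 genes of smallest p of 4 lists, and the 2 genes most like each factor. Genes of the lists named for their tie to Pax2 or Ptf1a or as background were chosen after their values were seen. Promoter sequences are from RefSeq on GRCm38.p6. Array number limits the precision. Alternatives were the mean of a gene's features, every feature on its own, quantile normalization, median centring of the arrays, a filter that drops the dim 1/3 of genes, trended and robust eBayes, a replicate block, array weights, a Y-linked covariate and leaving out each array. Leaving out OC mutant 3 and control 1 together and the pan-neuronal mean as a covariate were added after seeing the data.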

Additional observations from a re-analysis of the deposited data

Results flagged for a closer look

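Of 38 groups of arrays looked at, 1 held an array far from the rest by Dixon's criterion, which chance alone meets in about 1 of 20 groups. This was Lhx1 on control 1, with a log2 signal of 7.71, where the nearest control had 8.71. Lhx1 on OC mutant 3 (7.88) was also the lowest of its group but did not meet the criterion. Without control replicate 1 the log2 fold change of Lhx1 was −0.30, against −0.08 with all arrays, and it did not pass in limma in either case.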

How the results depend on the processing

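None of the 7 factors passed the threshold under any alternative, with adjusted p-values in limma between 0.186 and 1.0. Signs turned under the settings below, and the cause was not tested except for the block. The replicate block left out control 5, which has no partner, and its log2 fold changes of 2.2e-04 for Pax2, 0.078 for Pax8 and 0.055 for Lhx5 equal those without control replicate 5 and no block, so these turns come from that array. On these 8 arrays 1 gene was called with the block and 2 without it. The replicate numbers did not pair the arrays (correlations of −0.38, −0.13, −0.39 and −0.16 for numbers 1 to 4). With the Y-linked mean as a covariate the values were 0.25 for Pax2, 0.18 for Pax8, 0.13 for Lhx1 and 0.076 for Lhx5, and 2 genes were called. With the pan-neuronal mean as a covariate they were 0.30 for Pax2, 0.38 for Pax8, 0.14 for Lhx1, 0.24 for Lhx5, −0.020 for Ptf1a and 0.056 for Gbx2, and 101 genes were called. Array weights called 12 genes. Without OC mutant 3 and control 1, 44 genes were called and the Pax2 minus Pax8 gap differed by 0.011.

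Leaving out each array in turn, the count of genes called ran from 2 to 44 (44 without OC mutant replicate 3). The log2 fold change ran from −0.38 to 0.28 for Pax2, −0.39 to 0.29 for Pax8, −0.30 to 0.13 for Lhx1 and −0.24 to 0.16 for Lhx5, in each case lowest without control replicate 1 and highest without OC mutant replicate 3. It ran from 0.02 to 0.25 for Ptf1a, −0.13 to 0.22 for Gbx1 and −0.32 to −0.01 for Gbx2. The gap differences ran from −0.13 to 0.16 (Pax2 minus Pax8), −0.17 to 0.012 (Lhx1 minus Lhx5) and 0.04 to 0.31 (Gbx1 minus Gbx2). Quantile normalization and median centring moved the unadjusted calls over all genes to 767 higher with 1428 lower and 758 higher with 1302 lower, against 1067 higher with 1094 lower on the deposited values. Leaving out the dim 1/3 of genes removed Gbx1. Ptf1a and Gbx1 lie near background, so small changes of either could be missed.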
